A study of Mus musculus with 7 samples.

Results

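The genes described here are the mouse MHC class I heavy chains and the proteins that fold them and load them with peptide. They were chosen by name: 30 rows of the expression table whose symbol begins with H2-K1, H2-K2, H2-D1, H2-Q, H2-T or H2-M followed by a digit, and 10 partner genes given by symbol, namely B2m, Tap1, Tap2, Tapbp, Tapbpl, Erap1, Nlrc5, Calr, Canx and Pdia3. Together these are 40 of the 23420 rows in the table. RNA of ventricle tissue from 7 mice was sequenced in a study of myocarditis caused by immune checkpoint inhibitors (ICI), drugs that block the T cell receptors CTLA-4 and PD-1. The 3 ICI-myocarditis mice carried the genotype Ctla4+/-;Pdcd1-/-, and the 4 control mice carried Ctla4+/+;Pdcd1-/-, so that controls also lacked Pdcd1, the gene of PD-1. The alleles are germline, all animals were 3 to 6 weeks old and labelled as having had no treatment, and no strain is given in the labels. The tissue label reads whole heart while the extraction protocol names the ventricle.

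A class I molecule is a heavy chain paired with the light chain beta-2-microglobulin, and it shows short peptides from inside the cell to CD8 T cells and natural killer cells. The peptides are cut by the proteasome, pumped into the endoplasmic reticulum by the TAP transporter, trimmed there by ERAP1 and placed in the groove by tapasin with calreticulin and the oxidoreductase PDIA3, after calnexin has helped the chain to fold. Interferons raise the transcription of many of these genes, and NLRC5 acts as a transactivator of class I genes together with the RFX, CREB and NF-Y factors. Resting cardiomyocytes are known for low levels of class I.

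Of the 40 genes, 21 passed the filter on low values, which asked for 10 or more normalized counts in 3 or more of the libraries. One of them, H2-M2, passed through the ICI-myocarditis libraries alone and so had to differ. A normalized count is a gene's read count divided by a size factor of its library. In ICI-myocarditis, 17 of the 21 rose (limma on log2(normalized count + 1), Benjamini-Hochberg adjusted p below 0.05 over all genes), 0 fell and 4 did not pass the test, and without H2-M2 the count was 16 of 20. Over all 15236 genes tested, 11.7% were called higher and 4.00% lower. The median log2 fold change was 2.27 over the 21 genes, 2.26 without H2-M2 and -0.02 over all genes tested. All 3 ICI-myocarditis libraries lay above all 4 controls for 18 of the 21 genes, against 17.3% of all genes tested. H2-M2 is among the 18, and its separation was set by the filter. In the authors' deposited table, 17 members were higher and 0 lower at an adjusted p below 0.05 among 25 members with an adjusted p, against 12.9% called higher among all genes with one.

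Libraries held 20931730 to 39037176 reads assigned to genes, and no pair of libraries matched within sampling noise. Control 2 stood apart from the other controls in leukocyte genes: the pan-leukocyte gene Ptprc had 2874 normalized counts in control 2 and 483, 1108 and 518 in controls 1, 3 and 4. Control 2 was also the highest control for 15 of the 19 members with a mean of at least 100 normalized counts, and control 4 was the lowest for 13 of them. The summed cardiomyocyte markers of control 2 were the lowest of the controls (2610660 normalized counts, inside the ICI-myocarditis range of 2143350 to 3158370). The summed endothelial markers of control 2 were the highest of the controls (91162). Log2 fold changes without control 2 are therefore given as well. Controls 1 to 4 held 29.2, 113, 69.2 and 41.3 normalized counts of Ctla4, and ICI-myocarditis 1 to 3 held 282, 251 and 373. Pdcd1 stood at 9.07, 244, 3.35 and 2.50 among controls and at 1481, 1096 and 1340 in ICI-myocarditis, although all animals were labelled Pdcd1-/-. A count over a whole gene cannot tell which of its exons the reads came from, so neither gene checks the genotype labels. Cardiomyocyte genes were abundant in every library, with a summed level of 2143350 to 5340260 normalized counts over 12 markers.

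The heavy chains are close relatives, and how far their reads can be told apart is visible in their exons. The heavy chain genes lie on chromosome 17 in the H2 region. The following sequences are the first 60 bases of the exon that encodes the alpha 2 domain, part of the peptide groove, and of the exon that encodes the alpha 3 domain, which contacts CD8. They were read from GENCODE annotation release M21 and the GRCm38 genome, which is that of C57BL/6J, and they are shown because they carry the sequence by which reads are assigned to a heavy chain. Capitals mark bases that differ from H2-K1. The alpha 2 stretches lie at chr17:33999487-33999546 on the minus strand for H2-K1, chr17:35380361-35380420 on the plus strand for H2-Q4 and chr17:35263839-35263898 on the plus strand for H2-D1.
H2-K1 alpha 2: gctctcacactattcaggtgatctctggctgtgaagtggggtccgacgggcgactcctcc
H2-Q4 alpha 2: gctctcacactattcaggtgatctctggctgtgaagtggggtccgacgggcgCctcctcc
H2-D1 alpha 2: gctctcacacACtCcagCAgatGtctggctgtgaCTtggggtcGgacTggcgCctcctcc
The alpha 3 stretches lie at chr17:33997501-33997560 on the minus strand for H2-K1, chr17:35265784-35265843 on the plus strand for H2-D1, chr17:36031038-36031097 on the minus strand for H2-T23, chr17:35382858-35382917 on the plus strand for H2-Q4 and chr17:37272269-37272328 on the plus strand for H2-M3.
H2-K1 alpha 3: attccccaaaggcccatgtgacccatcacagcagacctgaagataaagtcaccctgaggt
H2-D1 alpha 3: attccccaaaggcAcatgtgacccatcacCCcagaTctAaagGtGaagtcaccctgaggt
H2-T23 alpha 3: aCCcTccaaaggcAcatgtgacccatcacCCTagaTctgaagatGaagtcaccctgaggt
H2-Q4 alpha 3: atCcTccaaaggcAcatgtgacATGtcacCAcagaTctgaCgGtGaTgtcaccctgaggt
H2-M3 alpha 3: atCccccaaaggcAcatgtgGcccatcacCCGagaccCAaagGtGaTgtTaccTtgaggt
The order of likeness to H2-K1 differs between the domains. Over the whole alpha 2 exon, H2-Q4 shared 91.3% of bases with H2-K1 and H2-D1 shared 88.0%, whereas over the alpha 3 exon H2-D1 shared 96.0%, H2-T23 95.3% and H2-Q4 92.8%. H2-T23 fell to 70.7% in alpha 2, and H2-M3 was the most distant of the 5, with 67.8% in alpha 2 and 84.8% in alpha 3.

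Sharing over the length of a read was smaller than these identities. Sharing was read from 1 transcript per gene, the longest coding one or else the longest, so exons outside it were not checked. Of all 150-base stretches of these transcripts, the length of 1 read, 0% of those of H2-K1, H2-Q4, H2-T24, H2-M2 and H2-M3 were found unchanged in another gene. For H2-D1 the share was 1.79% (with H2-Q1), for H2-T23 0.831% (with the unnamed gene model Gm7030), for H2-T10 1.13% (with H2-T22), for H2-Q5 3.18% (with H2-Q7 and H2-Q10) and for H2-Q1 4.64% (with H2-D1 and H2-Q2). Among the genes compared, the largest shares were 9.68% for H2-Q7 (with H2-Q5 and H2-Q6) and 5.99% for H2-Q6 (with H2-Q7). H2-Q8, H2-Q9 and H2-T9 were not in the annotation used. Sequence shared with them was not counted, so the shares given here may be too low. Over 75-base stretches the shares rose to 1.55% for H2-K1, 6.90% for H2-D1, 7.91% for H2-Q4 and 13.1% for H2-T23. They reached 20.7% for H2-Q5, 21.7% for H2-Q7, 23.3% for H2-T10 and 26.1% for H2-T22, the highest. H2-Q6 and H2-Q7 were 99.3% identical in the alpha 3 exon and 94.9% in alpha 2. In the transcripts compared, the partner genes shared no 150-base stretch with another gene. How reads that fit more than 1 gene were counted is not given in the sources used here, and the class I alleles of the animals may differ from the reference, so the rows of the Q and T regions with shared sequence are uncertain as single genes.

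**Figure D1:**
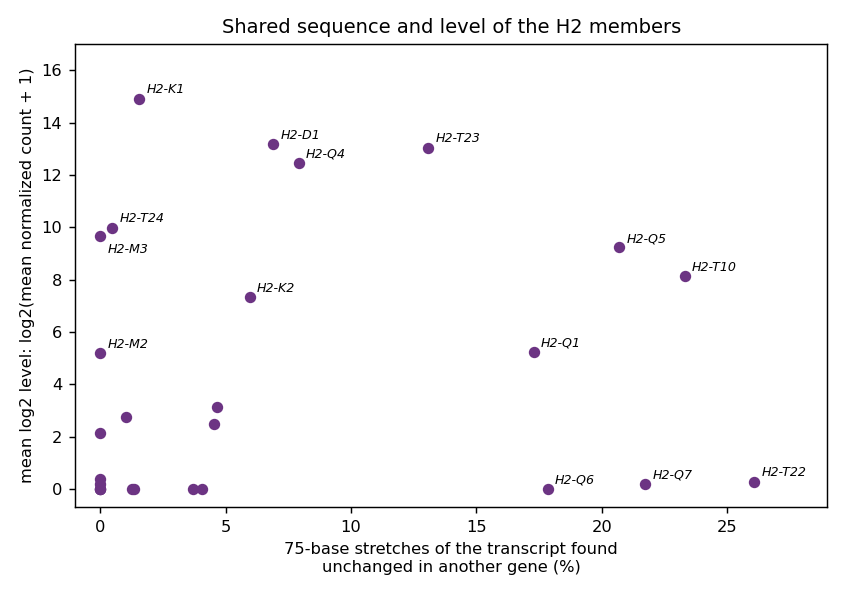
Each point is an H2 gene with annotated transcripts. The horizontal axis gives the percent of 75-base stretches of 1 transcript per gene found unchanged in another annotated gene. The vertical axis gives the log2 of the gene's mean normalized count over the 7 libraries plus 1. H2-K1 combines the highest level with 1.55% shared stretches, while H2-Q6, H2-Q7 and H2-T22 lie near 0 on the vertical axis at 17.9% to 26.1%.

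H2-K1 and H2-D1, the classical heavy chains that present peptides to CD8 T cells, rose, with group means 6.47 and 5.51 times those of controls. H2-K1 (chr17:33996017-34000347) had 6598, 17894, 7641 and 4497 normalized counts in controls 1 to 4 and 57145, 59568 and 60949 in ICI-myocarditis 1 to 3. The groups did not overlap, the ICI-myocarditis libraries lay close together, and control 2 was more than 2 times any other control. The log2 fold change was 2.89 (SE 0.43, adjusted p = 0.00424), and 3.28 without control 2. H2-D1 (chr17:35262730-35267499) had 2754, 4429, 3395 and 2053 in controls and 17269, 15749 and 19136 in ICI-myocarditis, again without overlap. The change was 2.51 on the log2 scale (SE 0.28, adjusted p = 0.00251), and 2.69 without control 2. In bulk tissue, more cells of a type that express a gene and more RNA per cell cannot be told apart, and the same holds for a fall.

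The light chain rose as well. B2m (chr2:122147686-122153083), which every class I heavy chain of this family needs for a stable fold, had 8407, 11846, 8400 and 5337 normalized counts in controls and 38326, 53771 and 63296 in ICI-myocarditis. All ICI-myocarditis values lay more than 3 times above the highest control. B2m rose by 2.63 on the log2 scale (SE 0.33, adjusted p = 0.00317). Within libraries, the log2 ratio of B2m to H2-K1 was 0.03 ± 0.43 (SD, n = 4) in controls and -0.22 ± 0.32 (SD, n = 3) in ICI-myocarditis. That difference of -0.26 lay within the spread (exact two-sided permutation p = 0.429, adjusted over 8 ratios 0.490). Whether B2m exceeded the sum of the H2 members per kilobase turned on the length used. Per kilobase of all annotated exons, B2m was 1.95, 1.10, 1.58 and 1.71 times that sum in controls and 1.16, 1.67 and 1.77 times in ICI-myocarditis. Per kilobase of the longest coding transcript, it was 1.24, 0.673, 1.02 and 1.09 times in controls and 0.701, 1.0 and 1.07 times in ICI-myocarditis. Control 2 and ICI-myocarditis 1 had the lowest ratios by either length.

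**Figure D2:**
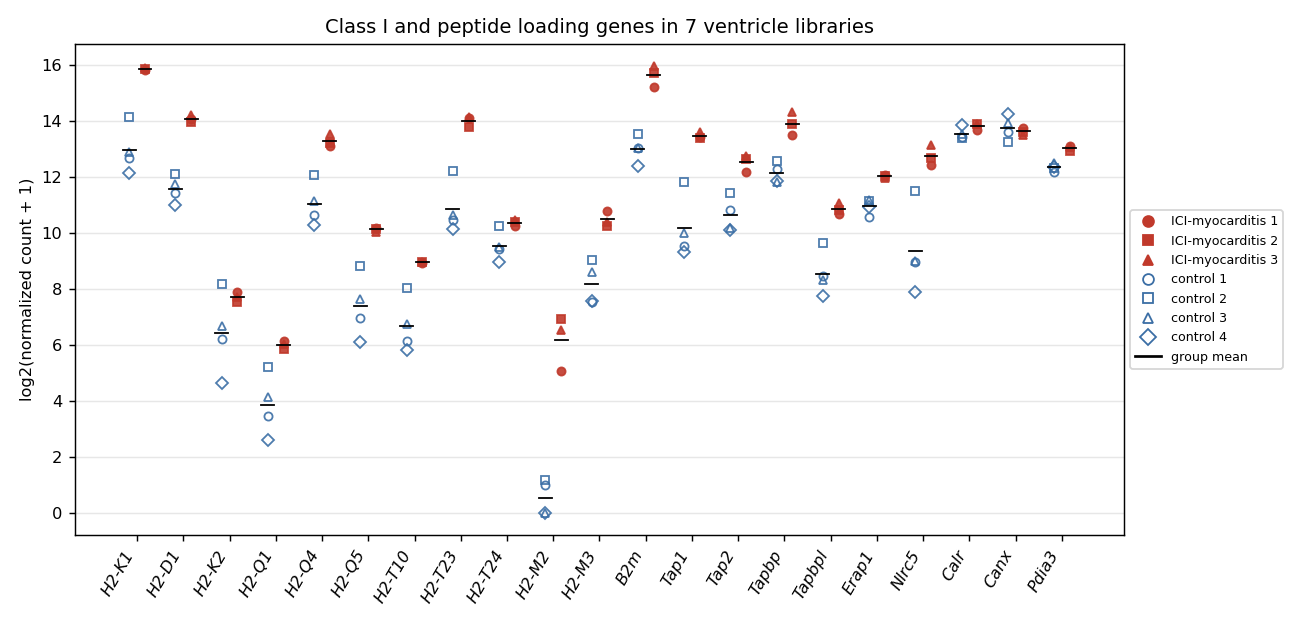
Log2(normalized count + 1) of the 21 members that passed the filter, with 1 symbol per library, controls as open blue symbols and ICI-myocarditis as filled red symbols. Black bars are group means. For H2-K1 the controls span 4497 to 17894 normalized counts and the ICI-myocarditis libraries 57145 to 60949. Control 2, the open square, is the highest control for most genes, and Calr and Canx show overlapping groups.

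H2-T23 encodes Qa-1, a nonclassical chain that presents leader peptides of other class I molecules to the NKG2A receptor on natural killer and CD8 T cells. H2-T23 (chr17:36029773-36032855) had 1420, 4790, 1605 and 1119 normalized counts in controls and 17396, 14201 and 18194 in ICI-myocarditis. Every ICI-myocarditis library was far above every control, and control 2 again led the controls. H2-T23 rose by 3.14 on the log2 scale (SE 0.45, adjusted p = 0.00394), and 3.59 without control 2. Of the other T region genes, H2-T10, annotated as a polymorphic pseudogene and related to ligands of gamma delta T cells, had 69.6, 258, 105 and 55.1 in controls and 479, 493 and 503 in ICI-myocarditis. The log2 fold change of H2-T10 was 2.27 (SE 0.47, adjusted p = 0.0122). H2-T24 did not pass the test: it had 681, 1204, 728 and 492 in controls and 1221, 1328 and 1410 in ICI-myocarditis. The lowest ICI-myocarditis library of H2-T24 lay just above control 2. Its log2 difference was 0.84 (SE 0.28, limma adjusted p = 0.0765), and without control 2 it was 1.08, which passed (adjusted p = 0.00700).

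In the Q region, 3 of 9 rows passed the filter and all 3 rose. H2-Q4 (chr17:35379617-35385290), which encodes the nonclassical chain Qb-1, had 1612, 4241, 2266 and 1246 normalized counts in controls and 8759, 9449 and 11889 in ICI-myocarditis. The lowest ICI-myocarditis library was about 2 times the highest control. The log2 fold change of H2-Q4 was 2.25 (SE 0.38, adjusted p = 0.00657). H2-Q5, annotated as a polymorphic pseudogene, had 123, 449, 197 and 67.6 in controls and 1165, 1136 and 1048 in ICI-myocarditis, a log2 fold change of 2.75 (SE 0.53, adjusted p = 0.00954). H2-Q1 was lower, with 10.1, 35.8, 16.7 and 5.0 in controls and 69.6, 56.5 and 64.9 in ICI-myocarditis. H2-Q1 rose by 2.16 (log2, SE 0.58, adjusted p = 0.0357 by limma), and the call was lost in 8 of 18 alternative analyses, with an adjusted p of up to 0.124. The groups did not overlap for any of the 3 rows. H2-Q2, H2-Q7, H2-Q8 and H2-Q10 ranged from 0 to 22.5 normalized counts, and H2-Q6 and H2-Q9 had no read in any library.

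H2-M3 and H2-M2 were the M region rows that passed the filter. H2-M3 (chr17:37270220-37274484), which presents N-formylated peptides from bacteria and mitochondria, had 182, 522, 391 and 189 normalized counts in controls and 1768, 1225 and 1336 in ICI-myocarditis. It rose by 2.29 on the log2 scale (SE 0.38, adjusted p = 0.00583), and its longest coding transcript shares no 75-base stretch with another gene. H2-M2 (chr17:37480851-37483552) had 1.01, 1.23, 0 and 0 normalized counts in controls and 32.7, 121 and 92.5 in ICI-myocarditis. These are 2 control reads against 320 ICI-myocarditis reads, a ratio of read rates pooled over each group of 153, with an exact 95% interval of 41.9 to 1266 that covers counting error only. The fitted log2 fold change was 5.64 (SE 0.62) with a pseudocount of 1 and 3.81 with a pseudocount of 5. H2-M2 passed the filter through the ICI-myocarditis libraries alone and so had to differ, and its call is no further support. H2-M10.2 and H2-M5 had at most 9.87 normalized counts in any library, H2-M10.1 had 1 read, and the other 7 M region rows had none.

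Counting the whole set, 10 members had no read in any library: H2-M1, H2-M10.3, H2-M10.4, H2-M10.5, H2-M10.6, H2-M11, H2-M9, H2-Q6, H2-Q9 and H2-T9. At these depths, 0 reads allow a level of up to 0.0768 to 0.143 CPM (counts scaled to library total), the level of 3 reads in a library. That limit does not hold for H2-Q6, H2-Q9 and H2-T9 if reads shared with a close copy were dropped or assigned elsewhere in the counting, nor for alleles unlike the reference. H2-T22 and H2-T3 had 0 to 2 reads in each library. H2-K2, next to H2-K1 and annotated as a transcribed pseudogene, had 72.6, 286, 101 and 23.8 normalized counts in controls and 236, 186 and 209 in ICI-myocarditis. Control 2 exceeded all ICI-myocarditis libraries for H2-K2. The log2 fold change of 1.30 (SE 0.67) did not pass the test (limma adjusted p = 0.233), and it was 1.88 without control 2 (adjusted p = 0.0233).

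The heavy chain reads were also compared by their make-up, as shares of their total. H2 members took 0.0412%, 0.132%, 0.0552% and 0.0261% of all reads in controls 1 to 4, and 0.369%, 0.366% and 0.428% in ICI-myocarditis. H2-K1 held 46.0% to 52.4% of these reads in controls and 53.1% to 57.5% in ICI-myocarditis, so the groups just missed overlapping. H2-D1 held 20.4%, 13.0%, 20.6% and 21% in controls and 16.4%, 15.2% and 16.7% in ICI-myocarditis, with control 2 below every other library. H2-T23 held 9.75% to 14% in controls and 13.7% to 16.5% in ICI-myocarditis, and H2-Q4 11.9% to 13.8% and 8.30% to 10.4%. Between the classical chains, the log2 ratio of H2-K1 to H2-D1 was 1.39 ± 0.42 (SD, n = 4) in controls and 1.77 ± 0.13 (SD, n = 3) in ICI-myocarditis, a difference of 0.38 that did not pass (exact permutation p = 0.171, adjusted over 8 ratios 0.229). Levels of 6 selected members were compared per length, leaving out others that lie between them, such as Canx, Pdia3 and H2-Q4. Per kilobase of the longest coding transcript, the mean control level was 9881 ± 3092 normalized counts for B2m, 5656 ± 3687 for H2-K1, 5534 ± 848 for Calr, 1592 ± 417 for Tapbp, 1517 ± 1166 for H2-T23 and 1502 ± 480 for H2-D1 (SD, n = 4). Tapbp, H2-T23 and H2-D1 were within their spread of each other in controls. In ICI-myocarditis the same 6 stood in the order B2m at 60230 ± 14653, H2-K1 at 36579 ± 1189, H2-T23 at 11275 ± 1435, H2-D1 at 8271 ± 807, Calr at 6658 ± 556 and Tapbp at 5415 ± 1573 (SD, n = 3). The order of H2-T23 and H2-D1 depends on the length used, since per kilobase of all annotated exons H2-D1 was at 6741 and H2-T23 at 5745.

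**Figure D3:**
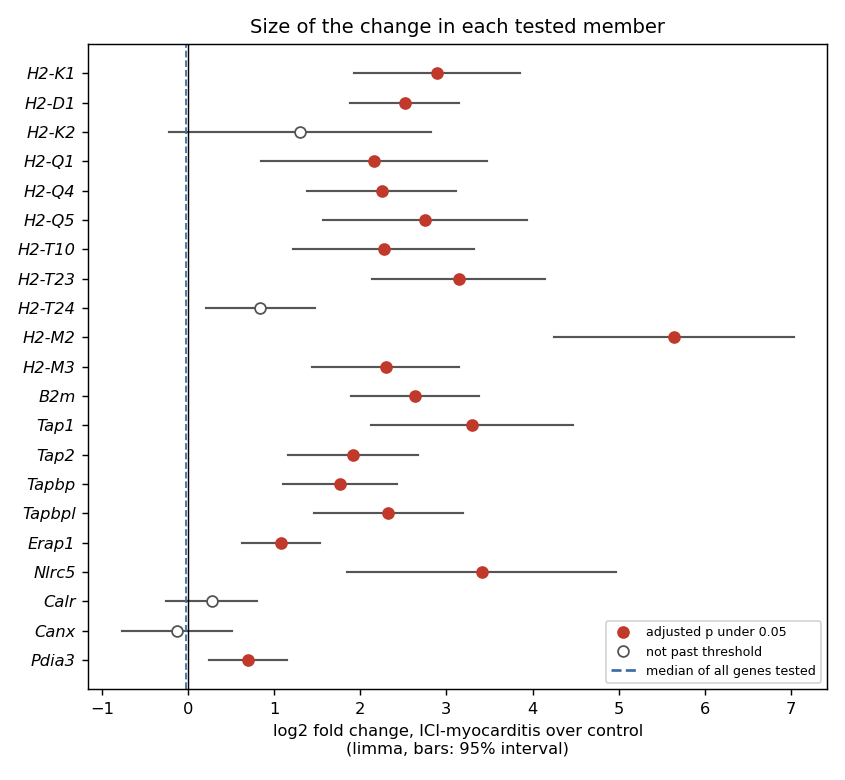
Log2 fold change of each tested member, ICI-myocarditis over control, with 95% intervals from limma as bars. Filled points passed an adjusted p of 0.05, and the dashed line is the median of all genes tested at -0.02. The intervals of Calr and Canx span 0. H2-M2, which passed the filter through the ICI-myocarditis libraries alone, stands at 5.64.

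All 4 peptide transport and loading genes rose. Tap1 (chr17:34187553-34197225) and Tap2 (chr17:34203527-34216321) encode the paired subunits of the transporter that brings peptides into the endoplasmic reticulum. Tap1 had 735, 3569, 1026 and 641 normalized counts in controls and 10879, 10752 and 12312 in ICI-myocarditis. Control 2 was more than 3 times any other control, and the ICI-myocarditis mean was 3.17 times control 2. Tap1 rose by 3.30 on the log2 scale (SE 0.52, adjusted p = 0.00493), and 3.85 without control 2. Tap2 had 1811, 2742, 1147 and 1086 in controls and 4667, 6437 and 6948 in ICI-myocarditis, and rose by 1.91 (SE 0.33, adjusted p = 0.00717). Within libraries, the log2 ratio of Tap1 to Tap2 was -1.30, 0.38, -0.16 and -0.76 in controls and 1.22, 0.74 and 0.83 in ICI-myocarditis. The groups did not overlap, and the difference of 1.39 had an exact permutation p of 0.0571, adjusted over 8 ratios 0.114, which did not pass.

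Tapbp (chr17:33915899-33929292) encodes tapasin, which bridges the heavy chain to TAP and edits the bound peptide. Tapbp had 5018, 6142, 3586 and 3707 normalized counts in controls and 11445, 15125 and 20510 in ICI-myocarditis. The groups were apart, and ICI-myocarditis 3 was the highest library. Tapbp rose by 1.76 on the log2 scale (SE 0.29, adjusted p = 0.00598). Tapbpl (chr6:125223933-125231860) encodes TAPBPR, a second peptide editor that works outside the loading complex. It had 348, 788, 315 and 214 in controls and 1643, 1796 and 2143 in ICI-myocarditis, a log2 fold change of 2.32 (SE 0.38, adjusted p = 0.00583). Between the editors, the log2 ratio of Tapbpl to Tapbp differed by 0.56 between the groups, with overlapping values (exact permutation p = 0.143, adjusted over 8 ratios 0.229). For Tap1 to Tapbp the log2 ratio differed by 1.54 without overlap (exact permutation p = 0.0571, adjusted over 8 ratios 0.114).

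Erap1, the trimming peptidase, had the smallest log2 fold change among the called members other than Pdia3. Erap1 (chr13:74639568-74693201) had 1525, 2235, 2337 and 1922 normalized counts in controls and 4333, 4161 and 4026 in ICI-myocarditis. Control 2 did not stand out here, and each ICI-myocarditis library was above every control. It rose by 1.08 on the log2 scale (SE 0.20, adjusted p = 0.00872). The log2 ratio of Erap1 to Tap1 was 1.05, -0.67, 1.19 and 1.58 in controls and -1.33, -1.37 and -1.61 in ICI-myocarditis. The groups did not overlap, and the difference of -2.22 did not pass (exact permutation p = 0.0571, adjusted over 8 ratios 0.114).

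Nlrc5 (chr8:94434356-94527272), the class I transactivator, had 501, 2877, 513 and 235 normalized counts in controls and 5463, 6583 and 9018 in ICI-myocarditis. Control 2 was 6.91 times the mean of the other controls, the widest such gap among the 19 members with a mean of at least 100. The log2 fold change was 3.41 (SE 0.69, adjusted p = 0.0120), 4.13 without control 2, and 3.21 without ICI-myocarditis 3, where the call was lost (limma adjusted p = 0.0511). The log2 ratio of Nlrc5 to Tap1 differed by 0.11 between the groups (exact permutation p = 0.743, adjusted over 8 ratios 0.743). Its values in controls, from -1.44 to -0.31, spanned those in ICI-myocarditis, from -0.99 to -0.45.

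Of the 3 general folding helpers, Pdia3 passed the test and Calr and Canx did not. Pdia3 (chr2:121413775-121438687), an oxidoreductase that pairs with tapasin, had 4627, 5123, 5775 and 5285 normalized counts in controls and 8791, 7678 and 8677 in ICI-myocarditis. The groups were apart, and the log2 fold change was 0.69 (SE 0.20, limma adjusted p = 0.0470). That call was lost in 8 of 18 alternative analyses, with an adjusted p of up to 0.257. Calr (chr8:84841850-84846934), the chaperone calreticulin, had 11027, 10781, 11740 and 14797 in controls and 13139, 15219 and 15264 in ICI-myocarditis. Its groups overlapped, with a log2 difference of 0.28 and a 95% interval of -0.25 to 0.80 (limma adjusted p = 0.480). Canx (chr11:50293961-50325673), the membrane chaperone calnexin, had 12376, 9814, 15625 and 19403 in controls and 13855, 12559 and 11641 in ICI-myocarditis. Its difference was -0.13, with a 95% interval of -0.77 to 0.51 (limma adjusted p = 0.804), and it changed sign to 0.031 when control 4 was left out. The log2 ratio of Calr to Tapbp was 1.14, 0.81, 1.71 and 2.00 in controls and 0.20, 0.01 and -0.43 in ICI-myocarditis. It differed by -1.49, with the smallest p that 35 splits can give (exact permutation p = 0.0286), which did not pass after adjustment over 8 ratios (0.114).

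Leaving out control 2 raised most of the fold changes not yet given in that form. Without it, the log2 fold change was 2.81 for B2m, 2.72 for H2-T10, 2.61 for H2-Q1, 2.58 for H2-Q4, 3.23 for H2-Q5, 2.58 for H2-M3 and 5.85 for H2-M2. Among the partners it was 2.18 for Tap2, 1.91 for Tapbp, 2.69 for Tapbpl, 1.13 for Erap1, 0.68 for Pdia3, 0.22 for Calr and -0.30 for Canx. The differences of the log2 ratios became 0.59 for H2-K1 to H2-D1, -0.47 for B2m to H2-K1, 1.67 for Tap1 to Tap2, 1.93 for Tap1 to Tapbp and 0.78 for Tapbpl to Tapbp. They were -2.71 for Erap1 to Tap1, 0.28 for Nlrc5 to Tap1 and -1.69 for Calr to Tapbp. All 8 kept their direction, and an exact permutation test of 3 against 3 libraries cannot pass the threshold.

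**Figure D4:**
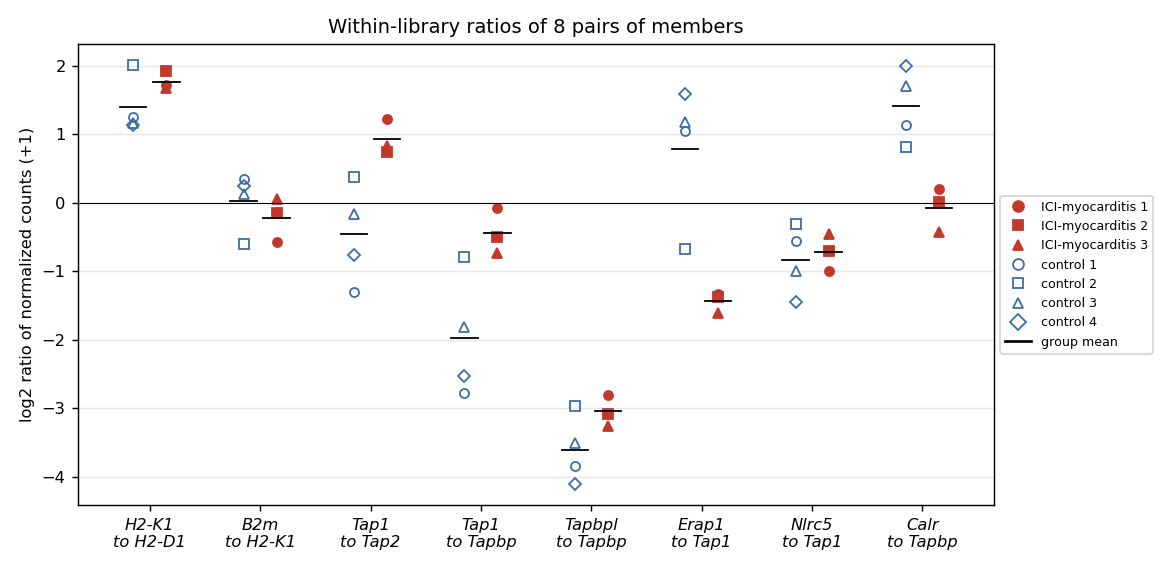
Log2 ratios of 8 pairs of members within each library, with symbols and colours as in the plot of values by library and black bars for group means. The 2 groups do not overlap for Tap1 to Tap2, Tap1 to Tapbp, Erap1 to Tap1 and Calr to Tapbp. None of the 8 ratios passed after adjustment.

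Genes that act before and around the loading step were read from lists. Of 19 proteasome subunits and peptidases, 5 rose, 0 fell and the median log2 fold change was 0.04. The 5 were the interferon-inducible subunits and activators of the immunoproteasome. Psmb8 rose by 3.00 (SE 0.48, adjusted p = 0.00506), Psmb9 by 2.95 (SE 0.50, adjusted p = 0.00627) and Psmb10 by 2.22 (SE 0.36, adjusted p = 0.00531), while the activator subunits Psme1 and Psme2 rose by 1.07 and 1.54. Psmb8 had 678, 2962, 940 and 713 normalized counts in controls and 11326, 7627 and 7400 in ICI-myocarditis, so that ICI-myocarditis 1 was the highest library here. The constitutive subunit Psmb5, which Psmb8 replaces, had a log2 difference of -0.35 (95% interval -1.08 to 0.38, limma adjusted p = 0.521).

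Of 16 regulators of class I transcription, 5 rose and 0 fell, with a median of 0.38. Among them the interferon regulatory factors Irf8, Irf1 and Irf2 rose by 3.04, 2.29 and 0.89, and Ciita, the class II counterpart of Nlrc5, rose by 3.93 (SE 0.69, adjusted p = 0.00719). Rfx5, a subunit of the RFX complex on class I promoters, had a log2 difference of 0.80 (limma adjusted p = 0.0729). Of 21 other folding genes of the endoplasmic reticulum, 5 rose and 0 fell, with a median of 0.25. One of the 5, Clgn, passed the filter through the ICI-myocarditis libraries alone, and without it 4 of 20 rose. Among them Sdf2l1 rose by 1.28, whereas the chaperone Hspa5 had a log2 difference of -0.22 (limma adjusted p = 0.649). Of 17 class I-like genes outside the H2 rows, 7 were tested and none was called higher or lower by limma, with a median of 0.58. The closest to the threshold was H60b, a ligand of the NKG2D receptor, at 2.41 (adjusted p = 0.0537).

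Receptors of T cells, natural killer cells and myeloid cells were read as a further list. Most bind class I, but Klrk1 binds class I-like stress ligands and Cd244 binds CD48. Of 22 such genes, 15 were tested, 12 rose and 0 fell, and 5 had no read in any library. Klra3 and Klra17 passed the filter through the ICI-myocarditis libraries alone, and 10 of the other 13 rose, with a median of 4.28. Cd8a, the coreceptor chain of CD8 T cells, had 35.3, 572, 42.4 and 22.5 normalized counts in controls and 2569, 2515 and 3888 in ICI-myocarditis. Cd8a rose by 5.43 on the log2 scale (SE 0.93, adjusted p = 0.00664) and Cd8b1 by 5.85 (SE 1.02, adjusted p = 0.00693). Klrd1, which pairs with NKG2A to bind Qa-1, rose by 5.29 (adjusted p = 0.00558), and Lilrb3, an inhibitory receptor of myeloid cells, by 3.15 (adjusted p = 0.00317).

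Markers of several cell types moved along with the class I genes. All 10 leukocyte markers rose, with a median of 2.94, and their summed level was 3962 to 13204 normalized counts in controls, highest in control 2, and 36189 to 62257 in ICI-myocarditis. All 9 T cell markers rose, with a median of 4.48 (Cd3g, a chain of the T cell receptor complex, by 5.20) and sums of 279 to 1543 in controls and 5648 to 8871 in ICI-myocarditis. Of 11 macrophage markers 9 rose, with a median of 1.99 (the complement gene C1qa by 2.55) and sums of 14417 to 18798 and 55544 to 86714, and control 2 was again the highest control for both lists. For B cells 3 of 7 tested markers rose, with a median of 0.34, but Fcrla passed the filter through the ICI-myocarditis libraries alone, and without it 2 of 6 rose. For neutrophils 1 of 3 rose (Csf3r, by 2.91), with a median of -0.20. For fibroblasts 3 of 10 rose, with a median of 0.61, among them the collagen gene Col1a2 by 1.63. Of 12 endothelial markers 0 rose and 5 fell, with a median of -1.02 (-1.24 for the transcription factor Erg) and sums of 35891 to 91162 in controls and 27470 to 34755 in ICI-myocarditis. Of 12 cardiomyocyte markers only Nppa rose and 0 fell, with a median of -0.75. No gene of these marker lists was without reads in all 7 libraries, and the part of any of these cell types in the class I values was not tested.

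**Figure D5:**
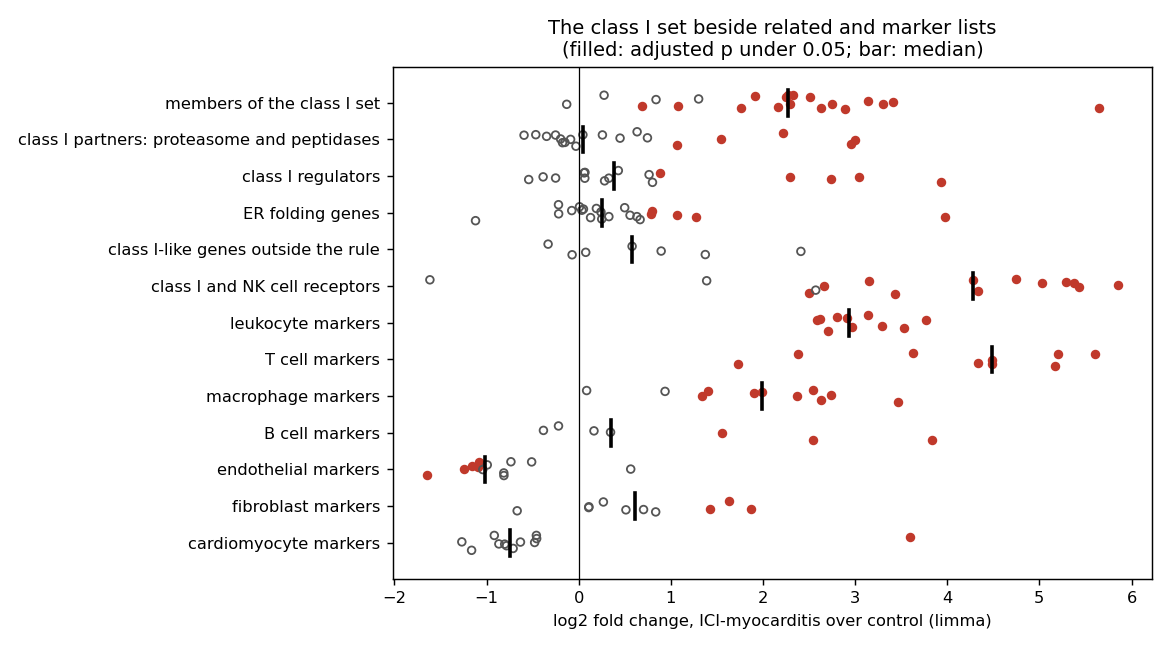
Log2 fold change of every tested gene in the class I set and in 12 further lists (the receptor list holds class I and other natural killer receptors), ICI-myocarditis over control. Filled red points passed an adjusted p of 0.05, open points did not, and black bars are medians. The class I set has its median at 2.27 (2.26 without H2-M2), between the medians of the macrophage markers at 1.99 and the leukocyte markers at 2.94. The proteasome list has 5 filled points to the right of a median of 0.04.

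Some members carry short promoter sequences of the kinds through which class I genes are known to be controlled, and these are printed here. Class I promoters are known to carry an upstream enhancer with an NF-kappaB site and an interferon response element, followed by a module in which RFX, CREB and NF-Y bind and NLRC5 is recruited. The 250 bases upstream of RefSeq starts in GRCm38 were searched on both strands, and 29 of the 40 members had an entry. Nlrc5, Tap2, Tapbpl, H2-Q1, H2-Q5 and H2-T10, which rose, had no entry and were not searched. A pair made of TGACG, the core of a CREB site, and ATTGG, the reverse of CCAAT, with 19 or 20 bases between them was present in 5 members and in 0.128% of 32851 promoters. H2-Q4, H2-T23, H2-M2, Tap1, Tapbp, Erap1 and Pdia3 had an entry and rose but carried no such pair. The pairs, with both motifs in capitals, read as follows in the direction of transcription. They lie at chr17:34000359-34000388 (minus strand) for H2-K1, chr17:35262993-35263022 (plus) for H2-D1, chr17:37270188-37270217 (plus) for H2-M3, chr17:35439091-35439119 (plus) for H2-Q7 and chr2:122147609-122147638 (plus) for B2m.
H2-K1 pair: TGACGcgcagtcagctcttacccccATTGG
H2-D1 pair: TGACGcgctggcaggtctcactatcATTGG
H2-M3 pair: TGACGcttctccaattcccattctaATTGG
H2-Q7 pair: TGACGtgtaacagttctcacccctATTGG
B2m pair: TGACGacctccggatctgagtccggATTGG
Of 37 genes with such a pair, 27 were tested and 6 rose, of which 4 were members. Outside the members, 2 of 23 rose (8.70%), against 11.7% of all genes tested. These were Fasl, the death ligand of cytotoxic T cells, at 5.07 and BC051142 at 4.01, which were named after their values were seen. H2-Q7 carried the pair but had 1 read in all 7 libraries together. Of its 150-base stretches, 9.68% were found unchanged in H2-Q5 or H2-Q6. How shared reads were counted is not known, and the cause of the low count of H2-Q7 was not tested. The single motifs are common, with ATTGG in 33.8% and TGACG in 17.8% of promoters, and the spacing was chosen after the sequences were read.

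Stretches of 30 bases were picked out that begin with the NF-kappaB consensus, read in the direction of transcription, and hold the reverse complement of GAANNGAAA. The latter has the shape of an interferon response element. Such a stretch was found in H2-K1, H2-D1, H2-Q4, H2-Q6 and H2-Q7 but not in H2-T23 or H2-M3, which rose. Those of H2-K1, H2-D1 and H2-Q4 are shown with both motifs in capitals, and their likeness within the motifs was set by the search. The stretches lie at chr17:34000429-34000458 (minus strand) for H2-K1, chr17:35262923-35262952 (plus) for H2-D1 and chr17:35379443-35379472 (plus) for H2-Q4.
H2-K1 enhancer: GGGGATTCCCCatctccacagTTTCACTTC
H2-D1 enhancer: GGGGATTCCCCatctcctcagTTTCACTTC
H2-Q4 enhancer: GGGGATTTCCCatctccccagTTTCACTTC
The NF-kappaB consensus was present in 9 of the 29 members with an entry, against 3.90% of all promoters, and its matches on both strands overlap in these stretches. H2-Q6, H2-Q7 and H2-T22 are among the 9 but had at most 1 read in any library. The heavy chains are close relatives, so they are not separate draws to set against a share of all promoters. GAANNGAAA, a spacing added after the sequences were read, was present in 8 of 29 against 6.31%, and the interferon-stimulated response element consensus (GAAA, any 2 bases, GAAA), in 3 of 29 (B2m, H2-T22 and H2-T23) against 2.98%. H2-Q4 rose without a TGACG and ATTGG pair at the stated spacing in its window. The light chain promoter carries the same kinds of motif in another order. The 250 bases upstream of B2m (chr2:122147437-122147686, plus strand) read as follows, with the interferon-stimulated response element, the NF-kappaB consensus on the reverse strand, TGACG and ATTGG in capitals.
B2m upstream: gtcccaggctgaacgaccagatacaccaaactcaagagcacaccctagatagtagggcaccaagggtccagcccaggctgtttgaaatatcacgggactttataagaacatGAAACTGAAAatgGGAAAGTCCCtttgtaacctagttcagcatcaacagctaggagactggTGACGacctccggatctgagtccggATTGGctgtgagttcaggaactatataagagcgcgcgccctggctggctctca
A match is a description of the letters in this window and does not show that a factor binds there.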

How the data were processed

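RNA of 4 control and 3 ICI-myocarditis mice was prepared with a stranded total RNA kit and sequenced as paired reads of 150 bases, per the labels. STAR 2.7.3 and the builds GRCm38 and mm10 are named, per the submitters' processing notes. The counting program, annotation and use of strand are not given in the sources used here. The authors deposited 1 table of 23420 rows with a signal per library that its values show to be read counts scaled by a size factor, beside a log2 fold change, a score (the test statistic) and a p-value with its adjusted form, per the file headers. Divided by the value of 1 read, all values were whole within a tolerance of 0.01. In control 1 that value was 1.01, near 1, and the largest gap from a whole number was 0.00039. Rows left out, 27 named as dates and 4 with repeated names, held 0.143% of reads. The table held 0 columns of other samples.

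The difference of groups was tested in R 4.3.3 with limma 3.58.1, on the log2 of the normalized count plus 1, with trend and robust variance. Genes entered with 10 or more normalized counts in 3 or more of the libraries, and p-values were adjusted by Benjamini-Hochberg at 0.05. Such fold changes understate the change of low genes. As alternatives, edgeR 4.0.16, DESeq2 1.42.0 and limma-voom were run on recovered reads, and edgeR called 1567 genes higher and 559 lower. Ratios of members were compared by exact permutation over 35 splits, whose smallest p is 0.0286. The tests were tested on simulated data. Lengths and exons came from GENCODE M21 (37 of 40 members matched) and promoters from RefSeq (29 of 40), both on GRCm38. Intervals of limma reflect the spread between libraries, whereas the interval of the H2-M2 read ratio and the limits for 0 reads cover counting error only, since reads carry no molecular identifiers. The labels name separate mice but give no litter or batch.

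Every member was accounted for. Named with values were the 10 partner genes, H2-K1, H2-D1, every other H2 member with a mean of at least 100 normalized counts and lower ones that were called. From each list came counts, the median and, for most, 1 to 3 of the members with the lowest p, plus Ptprc, Psmb8, Psmb9, Psmb10, Psme1, Psme2, Irf1, Rfx5, Hspa5, Cd8a, Cd8b1, Ctla4 and Pdcd1. One gene that met the rule is not reported here. Irf2 and Psmb5 were named after their values were seen. The members, the 13 lists and the tests were chosen with earlier results of these data known.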

Additional observations from a re-analysis of the deposited data

Results flagged for a closer look

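The log2 ratio of H2-K1 to H2-D1 among the 4 controls had 1 library far from the others. Control 2 stood at 2.01, and controls 1, 3 and 4 at 1.26, 1.17 and 1.13. The gap between control 2 and its nearest neighbour was 0.854 of the range of the 4 values, above Dixon's 95% critical value for 4 samples. Of the 29 sets of control values tested in this way (the members and the ratios), 1 passed, and chance alone flags about 1 in 20. Control 2 lay at the high side with the widest gap in 18 of the 29. It also had the highest Ptprc count among the controls, 2874 normalized counts, and the part of leukocyte RNA in this ratio was not tested.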

How the results depend on the processing

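Across 18 alternative analyses (pseudocount, filter, scaling, test, variance model, replicate block and each library left out), 14 of the 17 member calls were kept in each, between 13 and 19 members were called higher and 0 lower. H2-M2 was tested in 14 of them. H2-Q1 and Pdia3 each kept their call in 10 of 18, and Nlrc5 in 17, the exception being without ICI-myocarditis 3. H2-K2 and H2-T24 gained a call with voom quality weights and without control 2. Of 374 member fold changes, 350 kept direction and side of the threshold, 17 lost the threshold, 4 gained it and 3 changed sign. The sign changes were those of Canx, at 0.0295 with library size scaling and 0.0313 with the replicate block, and -0.296 to 0.0313 when single libraries were left out (positive without control 4). Scaling by library size moved the median of all genes from -0.02 to 0.13.

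Over all genes, 609 were called lower, against 310 with library size scaling, 1279 with DESeq2 and 1534 with voom. Leaving out single libraries gave 827 to 2248 genes called higher and 156 to 1085 called lower, and 13 to 19 members called higher. The log2 ratio of Nlrc5 to Tap1 ranged from -0.10 to 0.28 when single libraries were left out, and the cause of these shifts was not tested. Same-numbered libraries did not deviate together (correlations -0.27, -0.21 and -0.08), so the numbers were not taken to pair the samples. With the replicate block, in which control 4 has no partner, 15 members and 1388 genes were called higher and 389 lower. Depth limits what can be said of the 10 members with no read.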
